A study of Mus musculus with 43 samples.

Results

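The p53 pathway and apoptosis genes were followed in E14 mouse embryonic stem cells labelled control or MTF2 knockout. The group was defined by gene symbol as 42 genes in 8 classes: p53 with its paralogue and MDM regulators, p53 target genes, and the effectors, inhibitors and initiators of apoptosis. The symbols of all 42 were among the 22462 genes of the expression table, and 38 of them were among the 11362 genes that the authors' software tested. The other 4, Bik, Fas, Cycs and Casp8, carried no test. E14 cells come from a male mouse blastocyst, and for these samples gelatin-coated plates and serum medium with LIF were used. RNA-seq covered 3 control libraries and 3 libraries of the MTF2 knockout, which the labels give only as genotype MTF2 KO, so neither the allele nor the number of clones behind it is given in the sources used here. The 36 ChIP-seq samples, among them cells rescued with wild-type or K339A MTF2, and 1 input sample were not analysed here.

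MTF2 is a Polycomb-like subunit that helps to bring Polycomb repressive complex 2 to CpG islands, stretches of DNA rich in the dinucleotide CG. The transcription factor p53 is held low by MDM2 and MDM4, and when released after DNA damage it switches on genes that stop the cell cycle, repair DNA or start apoptosis. In the mitochondrial route to apoptosis, BH3-only proteins relieve BAX and BAK from BCL2, BCL-XL and MCL1, cytochrome c leaves the mitochondrion and, with APAF1, activates caspase 9, while inhibitor of apoptosis proteins hold the caspases in check. Mouse embryonic stem cells are known for abundant p53 and for a low threshold to apoptosis.

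Each group had 1 pooled value per gene in FPKM, a density of sequenced fragments scaled to transcript length and library size, so no value has an SD and library depth is unknown. The log2 ratios are of knockout over control after adding 0.5 FPKM to both, and a gene was called when its deposited q, a p-value adjusted over all tested genes, was at or under 0.05. As an error, the deposited log2 fold change divided by the deposited test statistic was used (the implied error), which is the software's estimate and not the spread between libraries. The cells labelled knockout held Mtf2 at 44.7 FPKM against 74.3 FPKM in control cells, called lower at q = 0.0496 in the authors' deposited table. The transcript thus remained at 60.2% of its control level, a level that does not show whether MTF2 protein was lost, and the groups are called by their labels. The 10 embryonic stem cell markers summed to 5604 FPKM in control against 5367 FPKM in knockout cells, with 1 called higher (Tdgf1, 41.3 to 70.6 FPKM) and 1 lower (Utf1, 352 to 215 FPKM). The 10 primitive endoderm markers summed to 27.8 and 515 FPKM, with 8 called higher and 0 lower, and of the 6 fibroblast markers only Thy1 reached the tested range, with Col3a1 and Postn listed at 0 in both groups. Whether the endoderm-like transcripts had a part in any result below was not tested.

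The start sites of 3 of the 4 called genes are shown because MTF2 acts at CG-rich DNA; Tnfrsf10b, the fourth, has no entry in the promoter table used. The sequences are the 250 bases upstream of the RefSeq start (GRCm38.p6, the reference of mm10), 5′ to 3′, with each CG in capitals. Btg2 lies at chr1:134079156-134079405 on the minus strand, Phlda3 at chr1:135765835-135766084 on the plus strand and Gadd45b at chr10:80929841-80930090 on the plus strand.
Btg2: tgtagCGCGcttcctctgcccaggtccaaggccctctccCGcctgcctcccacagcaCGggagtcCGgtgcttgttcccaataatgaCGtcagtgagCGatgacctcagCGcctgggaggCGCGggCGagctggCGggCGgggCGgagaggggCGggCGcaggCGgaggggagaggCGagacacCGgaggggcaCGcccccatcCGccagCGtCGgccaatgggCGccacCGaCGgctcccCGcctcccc
Phlda3: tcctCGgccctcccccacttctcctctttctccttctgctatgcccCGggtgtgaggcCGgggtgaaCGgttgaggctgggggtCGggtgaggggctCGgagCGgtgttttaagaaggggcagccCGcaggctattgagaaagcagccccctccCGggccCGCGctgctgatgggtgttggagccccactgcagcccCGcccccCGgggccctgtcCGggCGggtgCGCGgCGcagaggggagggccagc
Gadd45b: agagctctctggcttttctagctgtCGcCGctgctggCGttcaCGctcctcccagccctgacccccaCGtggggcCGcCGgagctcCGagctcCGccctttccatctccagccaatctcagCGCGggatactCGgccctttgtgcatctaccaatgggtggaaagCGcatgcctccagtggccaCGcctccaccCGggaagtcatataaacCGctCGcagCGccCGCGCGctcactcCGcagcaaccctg
The Btg2 sequence held 27 CG, that of Gadd45b 22 and that of Phlda3 18. RefSeq windows were at hand for 36 of the 42 genes (51 windows, as some genes have several starts), and the median was 17 CG, against 16 in the 11278 windows of tested genes and 6 in all 32851 windows. At 15 CG or more lay 56.9% of the genes' windows and 55.2% of those of tested genes. The extremes among the genes were Apaf1 with 42 CG and a Bcl2l1 window with 0. CG-rich starts were thus about as common here as among tested genes. The 3 called genes with a window held more CG than the median of 17, a difference that was not tested. Uncalled genes lay on both sides of that median, such as Bcl2 with 36 and Mdm2 with 29 above it and Trp53 with 9 below it.

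The same windows were searched for the p53 half-site consensus, a palindrome of 10 bases that reads alike on both strands, and for a tandem element of 20 bases, 2 adjacent half-sites of which only the central tetranucleotides had to match. The half-site was found in 10 of 51 windows (19.6%), from 10 genes, against 5.82% of the windows of tested genes and 7.13% of all windows. The tandem element was found in 3 windows (5.88%), against 4.26% and 5.69%. The 2 searches overlap, since a tandem element can hold a half-site. A match is a description of the letters and was not tied to binding here. In the stretches below the match is in capitals. The first 3 carry the tandem element: Aen (chr7:78895917-78895976, plus), Bbc3 (chr7:16309466-16309525, plus) and Trp53 (chr11:69580264-69580323, plus). The others carry a half-site: Bax (chr7:45467070-45467119, minus), Ccng1 (chr11:40755442-40755491, minus), Mdm2 (chr10:117710915-117710964, minus) and Gadd45a (chr6:67037418-67037467, minus).
Aen: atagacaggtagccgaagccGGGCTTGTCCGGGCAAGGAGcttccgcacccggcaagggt
Bbc3: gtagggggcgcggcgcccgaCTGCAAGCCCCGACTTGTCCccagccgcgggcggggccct
Trp53: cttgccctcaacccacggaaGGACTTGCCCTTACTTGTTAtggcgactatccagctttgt
Bax: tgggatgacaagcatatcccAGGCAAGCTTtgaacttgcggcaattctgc
Ccng1: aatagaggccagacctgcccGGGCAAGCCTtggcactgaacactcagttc
Mdm2: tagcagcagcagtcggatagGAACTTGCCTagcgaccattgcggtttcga
Gadd45a: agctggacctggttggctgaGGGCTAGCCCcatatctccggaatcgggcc
These 7, well-known p53 targets or p53 itself, are a selection out of 11 genes with a match to either motif. None of the 11 was called, against 12.9% of all tested genes, and at that share 11 genes are too few to read this as a result. Of their log2 ratios 4 were above 0 and 7 below. Aen, Bbc3, Trp53 and Bax had log2 ratios of -0.50, -0.61, -0.41 and -0.32, and Ccng1, Mdm2 and Gadd45a of 0.27, 0.23 and 0.66. The other 4, which carry the half-site, were Birc5 and Bmf at -0.04 each, Ei24 at 0.12 and Sesn1 at -0.67. Ei24 and Sesn1 are also p53 targets, and their stretches were not printed. The windows of the called genes Btg2, Phlda3 and Gadd45b held no match to either motif, as was so for most of the 51 windows.

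Most of the p53 and apoptosis genes were not called between knockout and control cells. Of the 38 tested genes, Btg2 and Tnfrsf10b (2 genes) were called higher, Phlda3 and Gadd45b (2 genes) lower, and 34 passed in neither direction. All 4 calls rest on the deposited p. When p was instead derived from the test statistic by a normal approximation, the adjusted values of these 4 were 0.182 to 0.743 (Benjamini-Hochberg over all tested genes). With that p 0 of the 38 were called, and at a deposited q of 0.01 both lower calls were lost. The share of all tested genes called under these 2 settings was not counted, so the losses cannot be read as particular to this pathway. At the deposited q of 0.05 the share of the 38 called, 10.5%, stood beside 12.9% in the tested table as a whole, made up of 6.9% higher and 6.03% lower. At an unadjusted deposited p at or under 0.05 there were 11 of 38, against 25.7% of all tested genes. The median log2 ratio was -0.09 with quartiles at -0.60 and 0.33, against -0.0035 with quartiles at -0.40 and 0.47 over all tested genes. The counts and the spread of this pathway were thus close to those of the table as a whole. The median is small beside the scaling of the table: with both groups set to the same summed FPKM, all ratios of well-expressed genes rise by 0.15, and the median became 0.05.

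**Figure D1:**
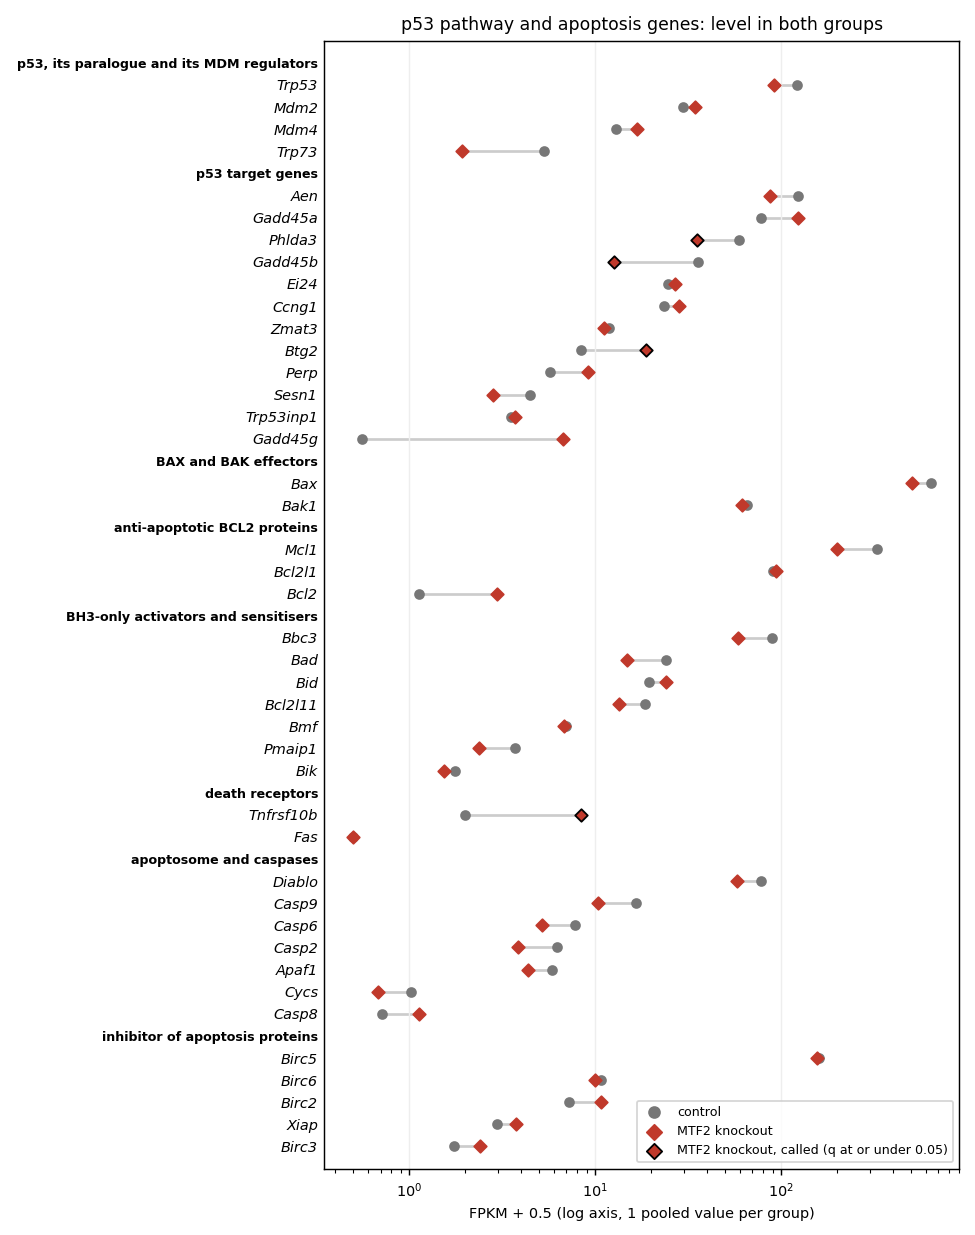
Level of each of the 42 genes in control (grey circles) and MTF2 knockout cells (red diamonds, black outline where called), by class and by control level, as FPKM + 0.5 on a log axis with 1 pooled value per group. Bax is the highest at 635 FPKM in control cells, Fas is at 0 in both groups, and the 4 outlined genes are Phlda3, Gadd45b, Btg2 and Tnfrsf10b.

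At the top of the pathway, p53 and its regulators were expressed in both groups and none was called. Trp53, which encodes p53, stood at 121 FPKM in control against 91.2 FPKM in knockout cells, 75.2% of the control level (log2 ratio -0.41). Mdm2, the ubiquitin ligase that degrades p53 and is itself a p53 target, stood at 29.0 and 34.0 FPKM, and Mdm4, its partner that masks p53, at 12.4 and 16.2 FPKM. On the level scale the Mdm2 to Trp53 ratio was 0.239 in control and 0.373 in knockout cells, a ratio for which no error can be given. Trp73, the p53 paralogue p73, had the lowest ratio of the class, from 4.78 to 1.43 FPKM (log2 ratio -1.45). The deposited q were 0.218 for Trp53, 0.563 for Mdm2, 0.510 for Mdm4 and 0.130 for Trp73 in the authors' deposited table. For Mdm2, 1.96 implied errors on each side of the deposited fold change ran from -0.56 to 1.02 on the log2 scale in the authors' deposited table. With the narrower error that the deposited p of 0.3203 implies, it ran from -0.22 to 0.68, so the table's own error scales disagree on whether it holds a 2-fold gain. For Trp53 the intervals ran from -1.15 to 0.33 and, from the p, from -0.84 to 0.02 in the authors' deposited table.

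The p53 target class held 3 of the 4 called genes, 25% of its members against 12.9% of all tested genes, and they went both ways. With 12 genes the class is too small to read this share as a result, and of 31 further p53 targets 12.9% were called. Mdm2, Bbc3, Pmaip1 and Tnfrsf10b, also p53 targets, were placed in other classes. Among the 12 members of the class, all tested, 1 was called higher, 2 lower and 9 in neither direction, while 7 ratios were above 0 and 5 below. Btg2 (chr1:134075170-134079120, mm10), an antiproliferative gene that p53 and growth signals induce, rose from 7.85 to 18.3 FPKM, 2.33-fold (log2 ratio 1.17). Phlda3, a p53 target that restrains AKT signalling, fell from 58.8 to 34.7 FPKM, 59.0% of the control level (log2 ratio -0.75). Gadd45b, a stress-induced gene, fell from 35.1 to 12.2 FPKM, 34.6% of the control level (log2 ratio -1.49). The deposited q were 0.0059 for Btg2, 0.0336 for Phlda3 and 0.0251 for Gadd45b in the authors' deposited table. The implied errors of the 3 deposited fold changes were 0.53, 0.46 and 0.82 on the log2 scale in the authors' deposited table. The interval of 1.96 such errors left out 0 for Btg2 (0.17 to 2.27) but held it for Phlda3 (-1.66 to 0.14) and Gadd45b (-3.14 to 0.07) in the authors' deposited table. With the narrower error that the deposited p implies, the intervals of Phlda3 (-1.28 to -0.25) and Gadd45b (-2.52 to -0.54) left out 0. The 2 error scales thus disagree for these 2 genes. Btg2 and Phlda3 lie 1.69 Mb apart on chromosome 1 and were called in opposite directions.

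The 3 Gadd45 paralogues, which encode small stress-response proteins that bind PCNA and MAP kinase kinase kinases, had different pooled values. Gadd45a, the best known p53 target of the 3, stood at 77.4 FPKM in control against 123 FPKM in knockout cells (log2 ratio 0.66, not called). Gadd45b was the called loss given above. Gadd45g was near 0 in control cells, 0.0596 FPKM, and stood at 6.25 FPKM in knockout cells (log2 ratio 3.59, not called). Of the summed Gadd45 level, Gadd45a held 68.8% in control and 87.0% in knockout cells, Gadd45b 31.2% and 8.61%, and Gadd45g 0.0529% and 4.42%. In the authors' deposited table the q was 0.1003 for Gadd45a and 0.496 for Gadd45g, whose fold change of 6.71 had an implied error of 3.29 on the log2 scale. The error that the deposited p of Gadd45g implies was wider, 5.78, with an interval from -4.61 to 18.0 that held 0. Whether the fold changes of the 3 genes differ from each other was not tested. No gene of the table under 1 FPKM in both groups was tested, so Gadd45g could enter the test only through its knockout level.

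None of the remaining targets was called. Aen, a p53-induced nuclease, stood at 122 and 86.2 FPKM (log2 ratio -0.50), the highest control level of the class. Ccng1, cyclin G1, at 22.8 and 27.7 FPKM, Ei24, a p53-induced membrane protein of the endoplasmic reticulum, at 24.2 and 26.3 FPKM, and Zmat3, an RNA-binding p53 target, at 11.4 and 10.7 FPKM, all had log2 ratios between -0.09 and 0.27. Sesn1, a sestrin that curbs mTORC1, stood at 3.97 and 2.31 FPKM (log2 ratio -0.67, implied error 0.89). Perp, a desmosome protein, stood at 5.22 and 8.61 FPKM (log2 ratio 0.67, implied error 0.73). Trp53inp1, a p53-induced autophagy gene, stood at 3.03 and 3.19 FPKM. In the authors' deposited table the q was 0.117 for Aen and between 0.280 and 0.925 for the other 6.

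**Figure D2:**
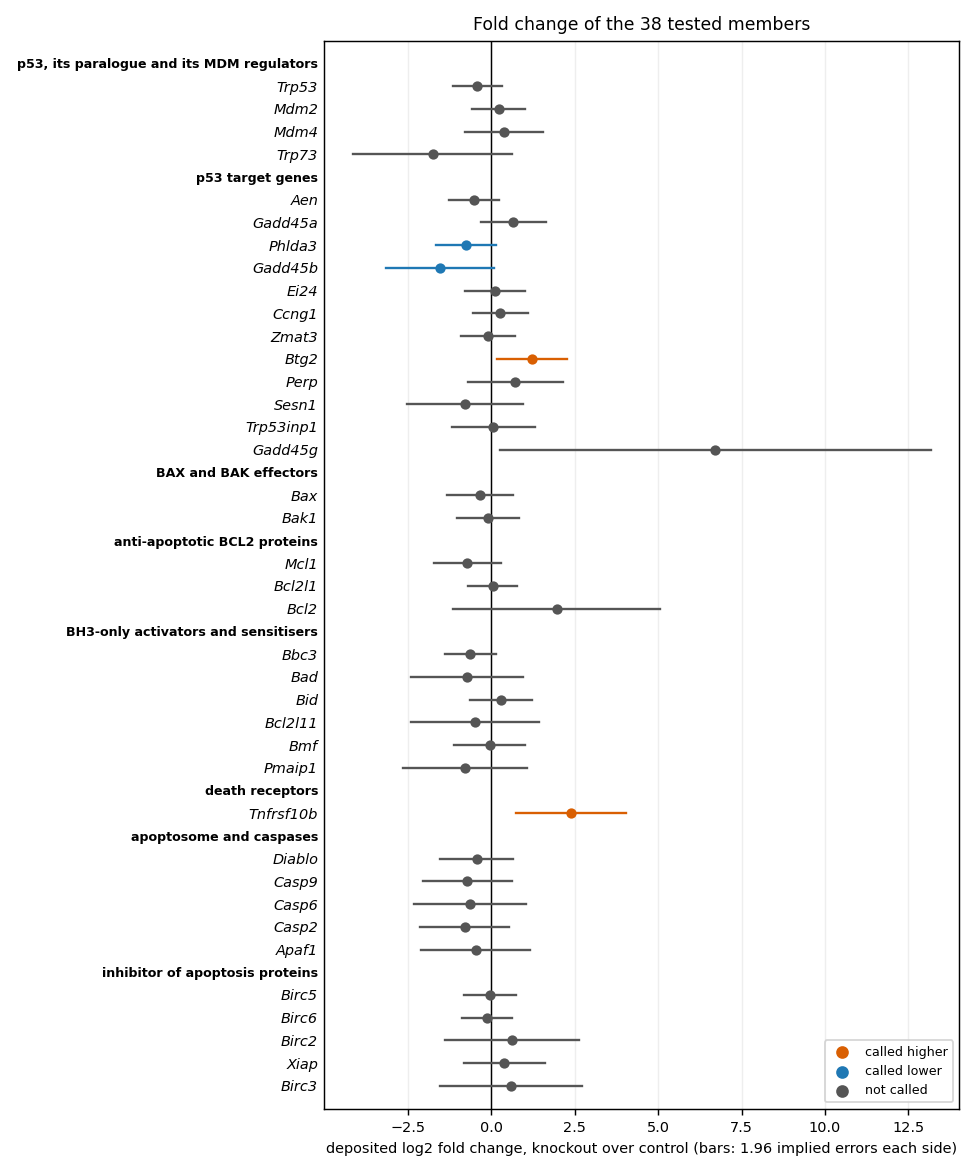
Deposited log2 fold change of knockout over control for the 38 tested genes (points), with 1.96 implied errors on each side (bars), by class. The bars of Btg2, Tnfrsf10b and Gadd45g leave out 0, those of the other 35 hold it, and Gadd45g has the widest bar of all. With the error implied by the deposited p, the interval of Gadd45g was wider still, from -4.61 to 18.0, and held 0. With that error, 0 lay outside the intervals of the 11 genes with a deposited p at or under 0.05, among them all 4 called genes.

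The effectors and inhibitors of the BCL2 family were among the most abundant genes of the pathway, and none was called. Bax, which permeabilises the outer mitochondrial membrane, stood at 635 FPKM in control against 507 FPKM in knockout cells (log2 ratio -0.32). Bak1, the second effector, stood at 65.3 and 61.2 FPKM. Of the inhibitors, Mcl1 stood at 327 and 199 FPKM (log2 ratio -0.71), and Bcl2l1, which encodes BCL-XL, at 89.6 and 93.2 FPKM (log2 ratio 0.06). Bcl2 itself was low, 0.628 FPKM in control against 2.46 FPKM in knockout cells (log2 ratio 1.39), and like Gadd45g it could be tested only through its knockout level. The order Mcl1, Bcl2l1, Bcl2 was the same in both groups, and Mcl1 made up 78.4% of the 3 in control and 67.6% in knockout cells. The deposited q were 0.0914 for Mcl1, 0.898 for Bcl2l1, 0.150 for Bcl2, 0.513 for Bax and 0.869 for Bak1 in the authors' deposited table. The interval of 1.96 implied errors ran from -0.68 to 0.79 for Bcl2l1 in the authors' deposited table, inside a 2-fold change in both directions. The summed level of the 2 effectors over that of the 3 inhibitors was 1.68 in control and 1.93 in knockout cells. No error can be given for this ratio of sums, so whether it differed between the groups was not tested. Bax shares its locus entry with 5 other genes, Bak1 with 2, and Bad, Diablo and Casp9 with 1 each, so reads of overlapping transcripts may be split between them.

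BH3-only genes, whose products sense damage and loss of growth signals, mostly had lower pooled levels in the knockout, and none passed the test. Of 7, 6 were tested, 5 had ratios below 0 and 0 were called in either direction. Among all tested genes 50.2% had a ratio below 0 and 12.9% were called. Whether the 6 differ from other genes as a class was not tested. One of the 5, Bmf at -0.04, turned to 0.0965 with equal summed FPKM. Bbc3, which encodes the p53-induced activator PUMA, came nearest, from 88.8 to 57.9 FPKM (log2 ratio -0.61), with q = 0.0531 just outside the threshold in the authors' deposited table. It made up 55.4% of the summed BH3-only level in control and 49.1% in knockout cells. Bad, which couples survival kinases to BCL-XL, stood at 23.5 and 14.3 FPKM, Bcl2l11, which encodes BIM, at 18.1 and 12.9 FPKM, and Bid, cleaved by caspase 8, at 19.0 and 23.6 FPKM. Bmf stood at 6.46 and 6.26 FPKM, Pmaip1, which encodes the p53 target NOXA, at 3.22 and 1.87 FPKM, and the untested Bik at 1.25 and 1.04 FPKM. Apart from Bbc3, the tested genes had q between 0.380 and 0.946 in the authors' deposited table. The median log2 ratio of the 6 was -0.54. The summed BH3-only level over that of the 3 inhibitors was 0.384 in control and 0.400 in knockout cells, since both sums were lower in the knockout. No error can be given for this ratio of sums either.

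The TRAIL receptor gene Tnfrsf10b had the largest log2 ratio of the 4 called members. This death receptor, which p53 can induce, rose from 1.48 to 7.84 FPKM, 5.29-fold (log2 ratio 2.07, implied error 0.84, q = 0.0012 in the authors' deposited table). It lies at chr14:69767472-69784403 (mm10), and chromosome 14 as a whole was shifted: its 405 expressed genes had a median log2 ratio of 0.71, with 116 genes called higher and 10 lower. The 29 expressed genes within 2 Mb of Tnfrsf10b had a median of 0.98, with 11 called higher and 0 lower, so its own ratio exceeded that of its neighbours by 1.09. The part of the chromosome's shift in this gain was not tested. Without chromosome 14, 1 gene of the pathway was called higher. Fas, the other death receptor of the group, was listed at 0 in both groups.

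**Figure D3:**
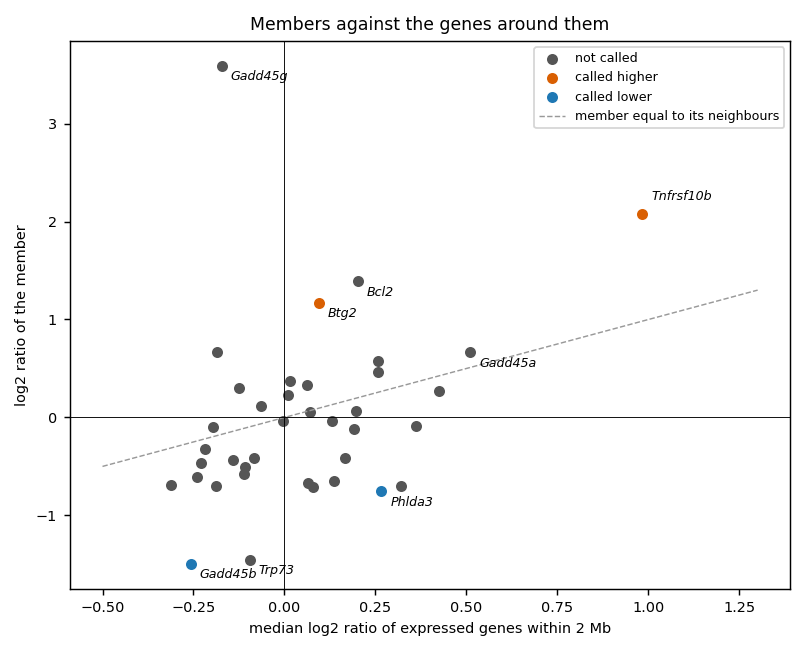
Log2 ratio of each of the 38 tested genes (vertical) against the median log2 ratio of expressed genes within 2 Mb (horizontal), with the dashed line where both are equal. Tnfrsf10b sits far to the right at a neighbourhood median of 0.98, Btg2 at 0.09, Phlda3 at 0.27 and Gadd45b at -0.26.

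For the other called genes the median of the surroundings was less shifted. The neighbourhood median was 0.09 for Btg2 (45 expressed genes), 0.27 for Phlda3 (31) and -0.26 for Gadd45b (106), so Phlda3 fell among neighbours whose median was above 0. Of these neighbours, 5 were called higher and 4 lower around Btg2, 6 and 0 around Phlda3, and 6 and 18 around Gadd45b. The part of the surroundings in these calls was not tested. Gadd45a had a neighbourhood median of 0.51 over 7 genes, close to its own ratio of 0.66. Tnfrsf10b and Gadd45a were the 2 of the 38 with a neighbourhood median over 0.5.

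Apoptosome and caspase genes all had ratios below 0 among the tested, and none was called. Of 7, 5 were tested. Diablo, which encodes the IAP antagonist SMAC, stood at 77.7 FPKM in control against 57.5 FPKM in knockout cells, and Casp9, the initiator caspase of the apoptosome, at 16.1 and 9.81 FPKM (log2 ratio -0.69). Casp6, an executioner, stood at 7.25 and 4.70 FPKM, Casp2, a nuclear initiator, at 5.74 and 3.34 FPKM, and Apaf1, the scaffold of the apoptosome, at 5.34 and 3.87 FPKM. The 5 ratios lay between -0.70 and -0.42, with a median of -0.58. Their q lay between 0.186 for Casp2 and 0.545 for Apaf1 in the authors' deposited table. Among all tested genes 50.2% had a ratio below 0 and 12.9% were called. Whether these 5 differ from other genes as a class was not tested. Casp8, the death receptor caspase, was low and untested at 0.212 and 0.621 FPKM. Cycs, which encodes cytochrome c, was listed at only 0.516 and 0.180 FPKM, a value to be held uncertain, since the gene is known for near-identical processed pseudogenes; their part in it was not tested.

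None of the inhibitors of apoptosis proteins was called, while 12.9% of all tested genes were. All 5 were tested, 3 had ratios above 0, and the median log2 ratio was 0.34. Birc5, which encodes survivin and serves in mitosis, stood at 159 FPKM in control against 154 FPKM in knockout cells and made up 88.5% and 86.1% of the 5. Birc6, a large ubiquitin ligase, stood at 10.3 and 9.46 FPKM, Birc2, which encodes cIAP1, at 6.70 and 10.3 FPKM, Xiap, the direct caspase inhibitor, at 2.45 and 3.23 FPKM, and Birc3, which encodes cIAP2, at 1.24 and 1.89 FPKM. Their summed level, mostly Birc5, was 179.4 FPKM in control against 179.3 FPKM in knockout cells. The q lay between 0.517 for Xiap and 0.933 for Birc5 in the authors' deposited table. For Birc5 the interval of 1.96 implied errors ran from -0.82 to 0.74, and for Birc6 from -0.87 to 0.63, in the authors' deposited table. Zmat3 (-0.89 to 0.71), Bcl2l1, Birc5 and Birc6 were the 4 of the 38 genes whose interval lay inside a 2-fold change in both directions, leaving 34. With the error implied by the deposited p, mostly narrower and chosen after seeing the data, 14 of the 38 lay inside that range. The count thus depends on which of the table's errors is used.

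**Figure D4:**
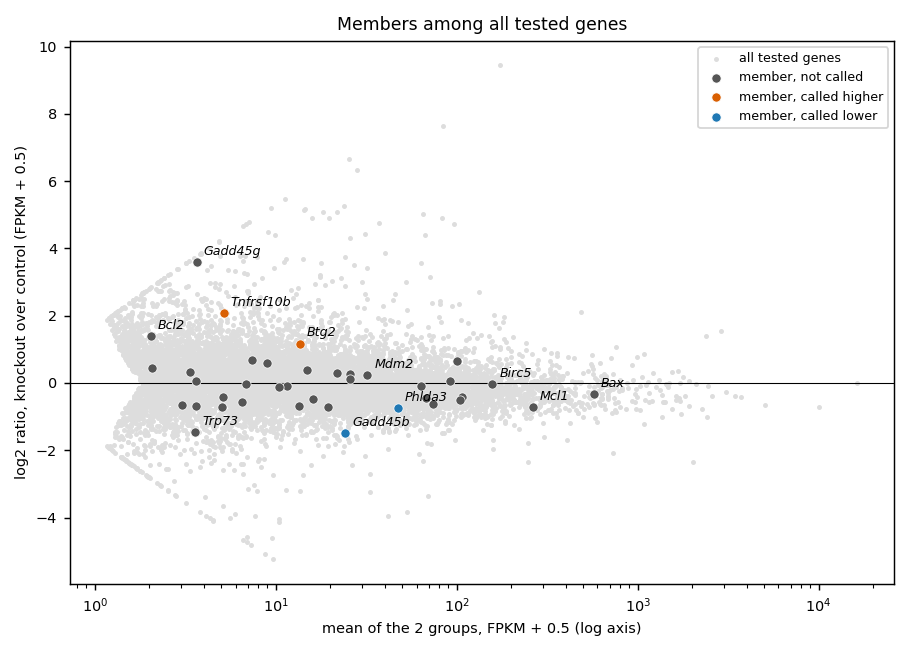
Log2 ratio of knockout over control (FPKM + 0.5) against the mean level of both groups on a log axis, for all 11362 tested genes (light points) and the 38 tested genes of the pathway (dark, orange where called higher, blue where called lower). The abundant genes Bax, Mcl1 and Birc5 lie at -0.32, -0.71 and -0.04, while Gadd45g, Tnfrsf10b, Bcl2 and Trp73 lie at low levels with wide ratios.

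How often a gene was called depended on its level across the table. Of tested genes with a mean of both groups under 5 FPKM 6.91% were called, and of those at 100 FPKM or more 21.7%. Of the 38, 11 lay under 5 FPKM, with 1 called, Tnfrsf10b. Between 5 and 20 FPKM, 1 of 11 was called, against 13.0% of all tested genes, and between 20 and 100 FPKM 2 of 10, against 16.3%. The 6 at 100 FPKM or more, Trp53, Aen, Gadd45a, Bax, Mcl1 and Birc5, held 0 calls.

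Other genes of the same pathways, taken from 5 further lists, gave a similar picture. Of 96 in the table, 75 were tested. The calls were 5 higher and 3 lower, with 67 uncalled. Thus 10.7% of those tested were called, against 12.9% of all tested genes. Cdkn1a, the p53 target that encodes the cell cycle inhibitor p21, stood at 46.4 FPKM in control against 46.3 FPKM in knockout cells, with a deposited fold change interval from -0.84 to 0.83 on the log2 scale in the authors' deposited table. Among 31 other p53 targets tested, 3 were called higher and 1 lower, which is 12.9%, the same share as over all tested genes. Sesn2, a stress-induced sestrin, rose from 58.6 to 92.6 FPKM, Ddit4, an inhibitor of mTORC1, from 77.1 to 147 FPKM and Ckap2, a spindle protein, from 7.20 to 14.2 FPKM. Xpc, a sensor of nucleotide excision repair, fell from 27.3 to 13.9 FPKM. Sesn2 and Ddit4 are induced by several stresses besides p53. The neighbours of Ckap2 within 2 Mb had a median log2 ratio of 1.09, above its own 0.93.

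Of 15 tested p53 regulators and damage kinases, 0 were called higher and 2 lower (13.3%, against 12.9% of all tested genes). Rchy1, which encodes the p53 ubiquitin ligase PIRH2, fell from 40.5 to 17.8 FPKM and Wrap53, the antisense neighbour of Trp53, from 21.5 to 11.7 FPKM. Cdkn2a, the source of the p53 activator ARF, stood at 74.8 and 59.0 FPKM and was not called. Among 9 other BCL2 family genes tested, 2 were called higher and 0 lower (22.2%, against 12.9% of all tested genes). Hrk, which encodes the BH3-only protein harakiri, rose from 2.62 to 17.2 FPKM (6.57-fold, log2 ratio 2.50, q = 0.0012 in the authors' deposited table) with a neighbourhood median of 0.0022. Bnip3l, a mitophagy receptor on chromosome 14, rose from 3.02 to 8.09 FPKM, a log2 ratio of 1.29 against 1.62 for its neighbours. Of the 10 other caspase and execution genes tested 0 were called, with a median log2 ratio of -0.27. Of the 10 other death receptor pathway genes tested 0 were called, with a median log2 ratio of 0.60. Ripk1 (0.466 to 3.04 FPKM) and Cflar (0.435 to 1.52 FPKM) could be tested only through their knockout levels. Over all 16 listed genes of that list, tested or not, the median was 0.29. Among the tested was Ripk3, a kinase of necroptosis on chromosome 14, at 4.77 and 10.8 FPKM, a log2 ratio of 1.10 against 0.96 for its neighbours. At an unadjusted deposited p at or under 0.05, the caspase and death receptor lists held 4 of 10 tested genes each, against 25.7% of all tested genes. The regulators held 3 of 15, the other p53 targets 6 of 31 and the BCL2 family list 3 of 9. Over the 5 lists together it was 20 of 75, near the share of the whole table.

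**Figure D5:**
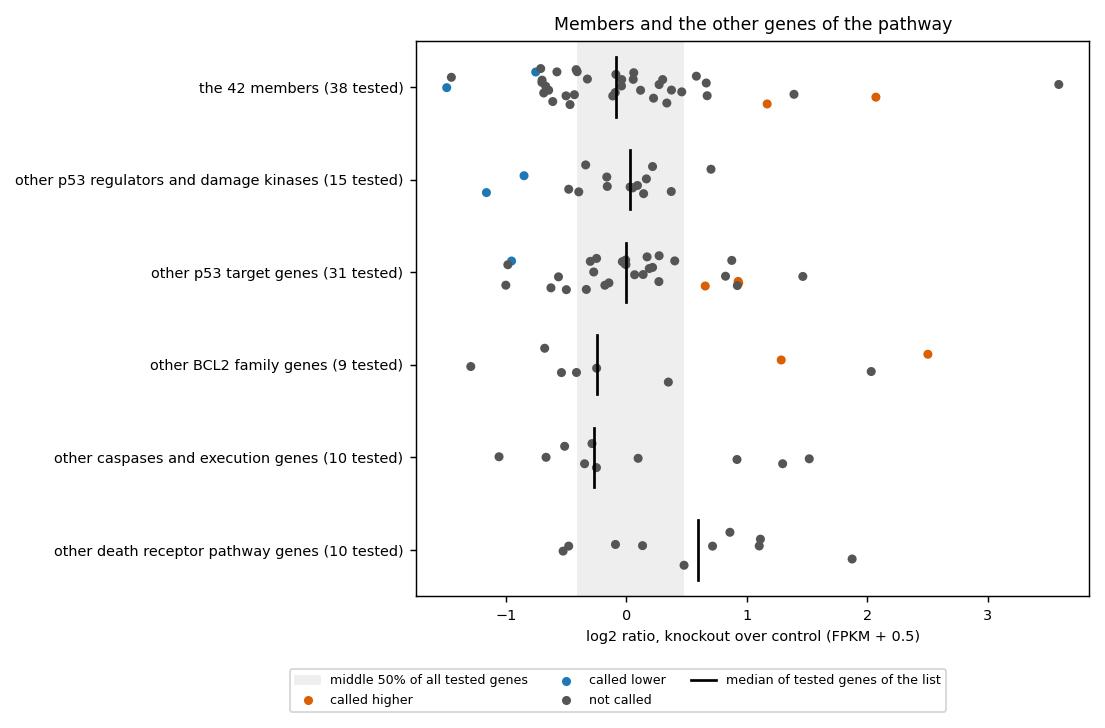
Log2 ratio of knockout over control for the tested members and for the tested genes of 5 other pathway lists (points, orange where called higher, blue where called lower), with the list median (black line) and the middle 50% of all tested genes (grey band). The members' median of -0.09 lies inside the band, the death receptor list's median of 0.60 lies to its right, and Hrk at 2.50 is the highest called point. Over all 16 listed genes of the death receptor list, tested or not, the median was 0.29.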

How the data were processed

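RNA-seq of 3 control and 3 MTF2 knockout libraries was used. Oligo-dT beads took the mRNA, per the labels' protocols. Without saying which step used which, the submitters' processing notes list TopHat2 2.1.0, Cuffdiff 2.2.1.3, Bowtie 1.0 and deepTools, and both mm10 and mm9 as builds. The authors give 1 FPKM value for each gene in each group, called pooled here, and the headers name the groups Control and Knockout. How the 3 libraries of a group were combined is not stated there. The log2 fold change, the test statistic (a score), the p-value and the q-value are the authors' deposited values. Depth per library is unknown, and p-values measure the error the software estimated.

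Members were matched by symbol. Genes were called across all 11362 genes of status OK, at a deposited q of 0.05. Ratios used a pseudocount of 0.5. Expressed means 1 FPKM or more in either group. Locus starts were moved to 1-based; all 42 members overlapped their RefSeq gene on GRCm38.p6, so positions are mm10. Promoter sequences came from RefSeq. The members, classes and lists were chosen with earlier results of these data known, so no list test was made. All members and the called genes of 5 other lists are named. Cdkn1a, Cdkn2a, Cflar, Ripk1 and Ripk3 were named after their values were seen. Converted to a normal z, the authors' deposited p gave a median of 1.74 times the deposited test statistic. The implied errors are thus mostly wider than those the p imply, but for Gadd45g the implied error was the narrower, 3.29 against 5.78. The adjustment and ratios were tested on simulated data. Work used Python 3.11.15, pandas 2.3.3, numpy 2.4.6 and scipy 1.17.1.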

Additional observations from a re-analysis of the deposited data

How the results depend on the processing

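No paired analysis was possible because the table holds 1 pooled value per group; for the same reason no replicate could be left out. Of the genes called higher, 2 in the main count, 2 were called at a q of 0.01, 2 at 2-fold or more and 0 with a normal p from the test statistic. Of those called lower, also 2, 0 were called at a q of 0.01, 1 at 2-fold or more (Gadd45b) and 0 with the normal p. With that p the adjusted values were 0.436 for Btg2, 0.182 for Tnfrsf10b, 0.743 for Phlda3 and 0.658 for Gadd45b (Benjamini-Hochberg over tested genes). The share of all tested genes called under these settings was not counted, so the losses cannot be read as particular to the pathway. Adjustment over genes at 1 FPKM or more left out no tested gene and so tested nothing. Without chromosome 14, chosen after seeing the data, 1 was called higher and 2 lower. The 5 genes that share a locus entry were all uncalled, so leaving them out could not change the counts. The count of genes with an interval inside 2-fold was 4, and 14 with the error implied by the deposited p. In the other pathway lists, with 5 higher and 3 lower calls, 2 and 2 were called at a q of 0.01, 2 and 1 at 2-fold or more, and 1 and 0 with the normal p. The median log2 ratio of -0.09 lay between -0.0927 and -0.0755 with other pseudocounts, with centring on all tested genes or on each chromosome, over all listed members and at 5 FPKM or more, and at 0.0538 with equal summed FPKM. That scaling turned the sign of 5 uncalled genes: Birc5 (0.11), Bmf (0.0965), Zmat3 (0.0538), Bak1 (0.0538) and Birc6 (0.0271). Depth per library, and with it the smallest change that could be called, is unknown.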
